A study of Mus musculus with 14 samples.

Results

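Astrocytes, the glial cells that contact synapses and blood vessels, were followed in RNA-seq of the mouse dorsal hippocampus through 10 genes chosen by name. The set holds 6 genes linked to the reactive state of these cells (Gfap, Vim, Serpina3n, Cd44, Osmr and Lcn2) and 4 genes linked to their resting state (Aqp4, Aldh1l1, Gja1 and Aldoc). All 10 were found by gene name in both deposited count tables, among the 26570 genes of the table of untrained mice and the 25933 genes of the table of the learning experiment. The study asked how a model of Tau pathology changes gene expression in the hippocampus, and what an activator of the acetyltransferases CBP and p300 changes in it.

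All mice were males aged 8 months of a strain labelled C57BL6, which the study's methods give as a C57BL6/J background. THY-Tau22 mice were heterozygous for a mutated human Tau transgene under the Thy1.2 promoter, which drives it in neurons. The untrained experiment compared 3 libraries of WT mice with 2 libraries of THY-Tau22 mice, for which no training or treatment is labelled and which are called untrained here. In the learning experiment all mice received weekly injections. WT VEH (2 libraries) were WT mice given saline and trained in the Morris water maze, and WT VEH_HC (3 libraries) were WT mice given saline and kept in their home cage. TAU VEH (2 libraries) were trained THY-Tau22 mice given CSP, a carbon nanosphere that serves as carrier. TAU MOL (2 libraries) were trained THY-Tau22 mice given CSP-TTK21, the activator bound to the same carrier. WT VEH and TAU VEH thus differ in genotype and in the injected material, and the effects of these cannot be told apart. No group of WT mice given the carrier or the activator was analysed here. The labels number the libraries of a group without tying each to its own mouse, so p-values measure the spread between these libraries. Per the study's methods, 3 further samples of the learning experiment, from mice of the same litter, were excluded afterwards for their great variability. The spread in that experiment is therefore that of the libraries kept after this exclusion.

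In a resting astrocyte, the water channel encoded by Aqp4 sits in the endfeet around vessels, connexin 43 from Gja1 forms gap junctions between neighbouring astrocytes, Aldh1l1 encodes a folate enzyme used as a marker of the whole cell class, and Aldoc encodes the aldolase of brain glycolysis. When neurons are damaged or inflammation begins, astrocytes thicken their cytoskeleton of intermediate filaments, built from the Gfap and Vim products. Cytokines of the interleukin 6 family signal through receptors such as the oncostatin M receptor, encoded by Osmr, to the kinases JAK1 and JAK2 and the factor STAT3, which raises Gfap. Serpina3n encodes a secreted inhibitor of serine proteases, Cd44 the cell surface receptor of hyaluronan, and Lcn2 the siderophore-binding lipocalin 2, and all of these are used as signs of astrocyte reactivity. Vim and Cd44 are also made by vascular and immune cells, so these transcripts are not particular to astrocytes in whole tissue. In such tissue, fewer cells of a type and less RNA per cell cannot be told apart.

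Libraries held between 28639121 and 37681155 counts on genes in the untrained experiment and between 24693713 and 52180305 in the learning experiment. Thy1, the gene whose promoter drives the transgene, lay between 786 and 913 CPM (counts relative to the library total, scaled by TMM factors) in all WT libraries and between 1804 and 2351 CPM in all THY-Tau22 libraries, so no library went against its genotype label. Mapt, the mouse Tau gene, lay between 530 and 875 CPM throughout. Libraries differed in how their counts followed the GC content of genes. Each library was set against the average of its experiment on the log2 scale, and the rank correlation of this deviation with GC content, described across genes, was positive in every WT library of the learning experiment (0.0848 to 0.455) and negative in every TAU library (-0.617 to -0.396). In untrained mice this correlation was 0.0667 to 0.323 in WT libraries and 0.481 and -0.599 in the THY-Tau22 libraries. Markers of the choroid plexus, a tissue next to the hippocampus, also set libraries apart: the sum of 14 such genes was 1611 to 2494 CPM in WT VEH, 90.5 to 249 CPM in WT VEH_HC, 251 to 298 CPM in TAU VEH and 733 to 797 CPM in TAU MOL.

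Promoter sequences of the 2 reactive genes called in TAU VEH compared with WT VEH are shown because STAT3 and AP-1 are factors tied to astrocyte reactivity. RefSeq windows of 300 bases (250 before to 50 after the transcript start, GRCm38.p6) were at hand for 9 of the 10 genes, with 10 windows in all. Both strands were searched for the STAT letters TTCNNNGAA and the AP-1 letters TGANTCA, which read the same on either strand. The Gfap window (chr11:102897151-102897450, minus strand) holds 1 STAT match that starts 2 bases before the transcript start. The Osmr window (chr15:6874264-6874563, minus strand) holds 1 AP-1 match that starts 3 bases past it. The lines give each window 5′ to 3′ on the strand of the gene, with the match in capitals.
Gfap promoter: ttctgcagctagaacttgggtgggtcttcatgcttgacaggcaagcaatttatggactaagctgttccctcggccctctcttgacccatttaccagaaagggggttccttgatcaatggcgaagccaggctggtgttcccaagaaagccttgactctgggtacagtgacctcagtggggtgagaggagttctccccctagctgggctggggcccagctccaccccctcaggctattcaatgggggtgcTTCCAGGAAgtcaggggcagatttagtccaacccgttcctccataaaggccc
Osmr promoter: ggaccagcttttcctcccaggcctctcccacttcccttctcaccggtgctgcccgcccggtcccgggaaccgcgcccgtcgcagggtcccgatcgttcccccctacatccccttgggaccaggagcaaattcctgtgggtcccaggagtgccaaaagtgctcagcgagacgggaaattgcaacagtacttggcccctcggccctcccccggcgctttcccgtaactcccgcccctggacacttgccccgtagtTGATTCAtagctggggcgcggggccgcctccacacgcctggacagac

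The STAT letters occurred in 2 of the 10 windows, those of Gfap and of the second Aldoc start, and in 8.30% of the 32851 mouse windows. The AP-1 letters occurred in 2 of the 10 windows, those of Osmr and Gja1, and in 7.81% of the mouse windows. These matches describe letters in a window and not binding, which was not measured here.

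Gfap (ENSMUSG00000020932) lies on the minus strand of chromosome 11 at 102748650 to 102762226 of mm9, the build of the files, and Osmr (ENSMUSG00000022146) on the minus strand of chromosome 15 at 6763577 to 6824313. Vim lies on chromosome 2 at 13495554 to 13504453, Cd44 on chromosome 2 at 102651298 to 102741822, Lcn2 on chromosome 2 at 32240153 to 32243317, and Serpina3n on chromosome 12 at 105644939 to 105652539. Among the resting genes, Gja1 lies on chromosome 10 at 56097106 to 56110225, Aldh1l1 on chromosome 6 at 90436421 to 90550197, and Aldoc on chromosome 11 at 78136470 to 78141283. Counts cover the exons of each gene. Serpina3n belongs to a cluster of closely similar paralogs, so its counts are uncertain to the extent that reads common to them were left out.

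Levels were compared between genes only per kilobase of exon. Aldoc was the most abundant of the 10 transcripts, with a median of 271 CPM per kb over the 9 libraries of the learning experiment, followed by Gfap with 110.3 CPM per kb and Gja1 with 54.0 CPM per kb. Serpina3n followed at 38.8 CPM per kb, Vim at 26.6, Aqp4 at 16.6 and Aldh1l1 at 15.5. The cytokine receptor Osmr had 0.880 CPM per kb, Cd44 had 0.389 and Lcn2 had 0.052. The reactive genes therefore spanned the scale from the second most abundant transcript to the 3 least abundant ones. Neighbours in this order whose ranges over the libraries overlapped were Gja1 (44.9 to 63.7 CPM per kb) and Serpina3n (30.2 to 49.6), Serpina3n and Vim (22.4 to 33.0), and Aqp4 (11.2 to 20.0) and Aldh1l1 (13.9 to 16.4). The medians of the untrained libraries fell in the same order, from 307 CPM per kb for Aldoc and 158 for Gfap to 0.0499 for Lcn2.

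**Figure D1:**
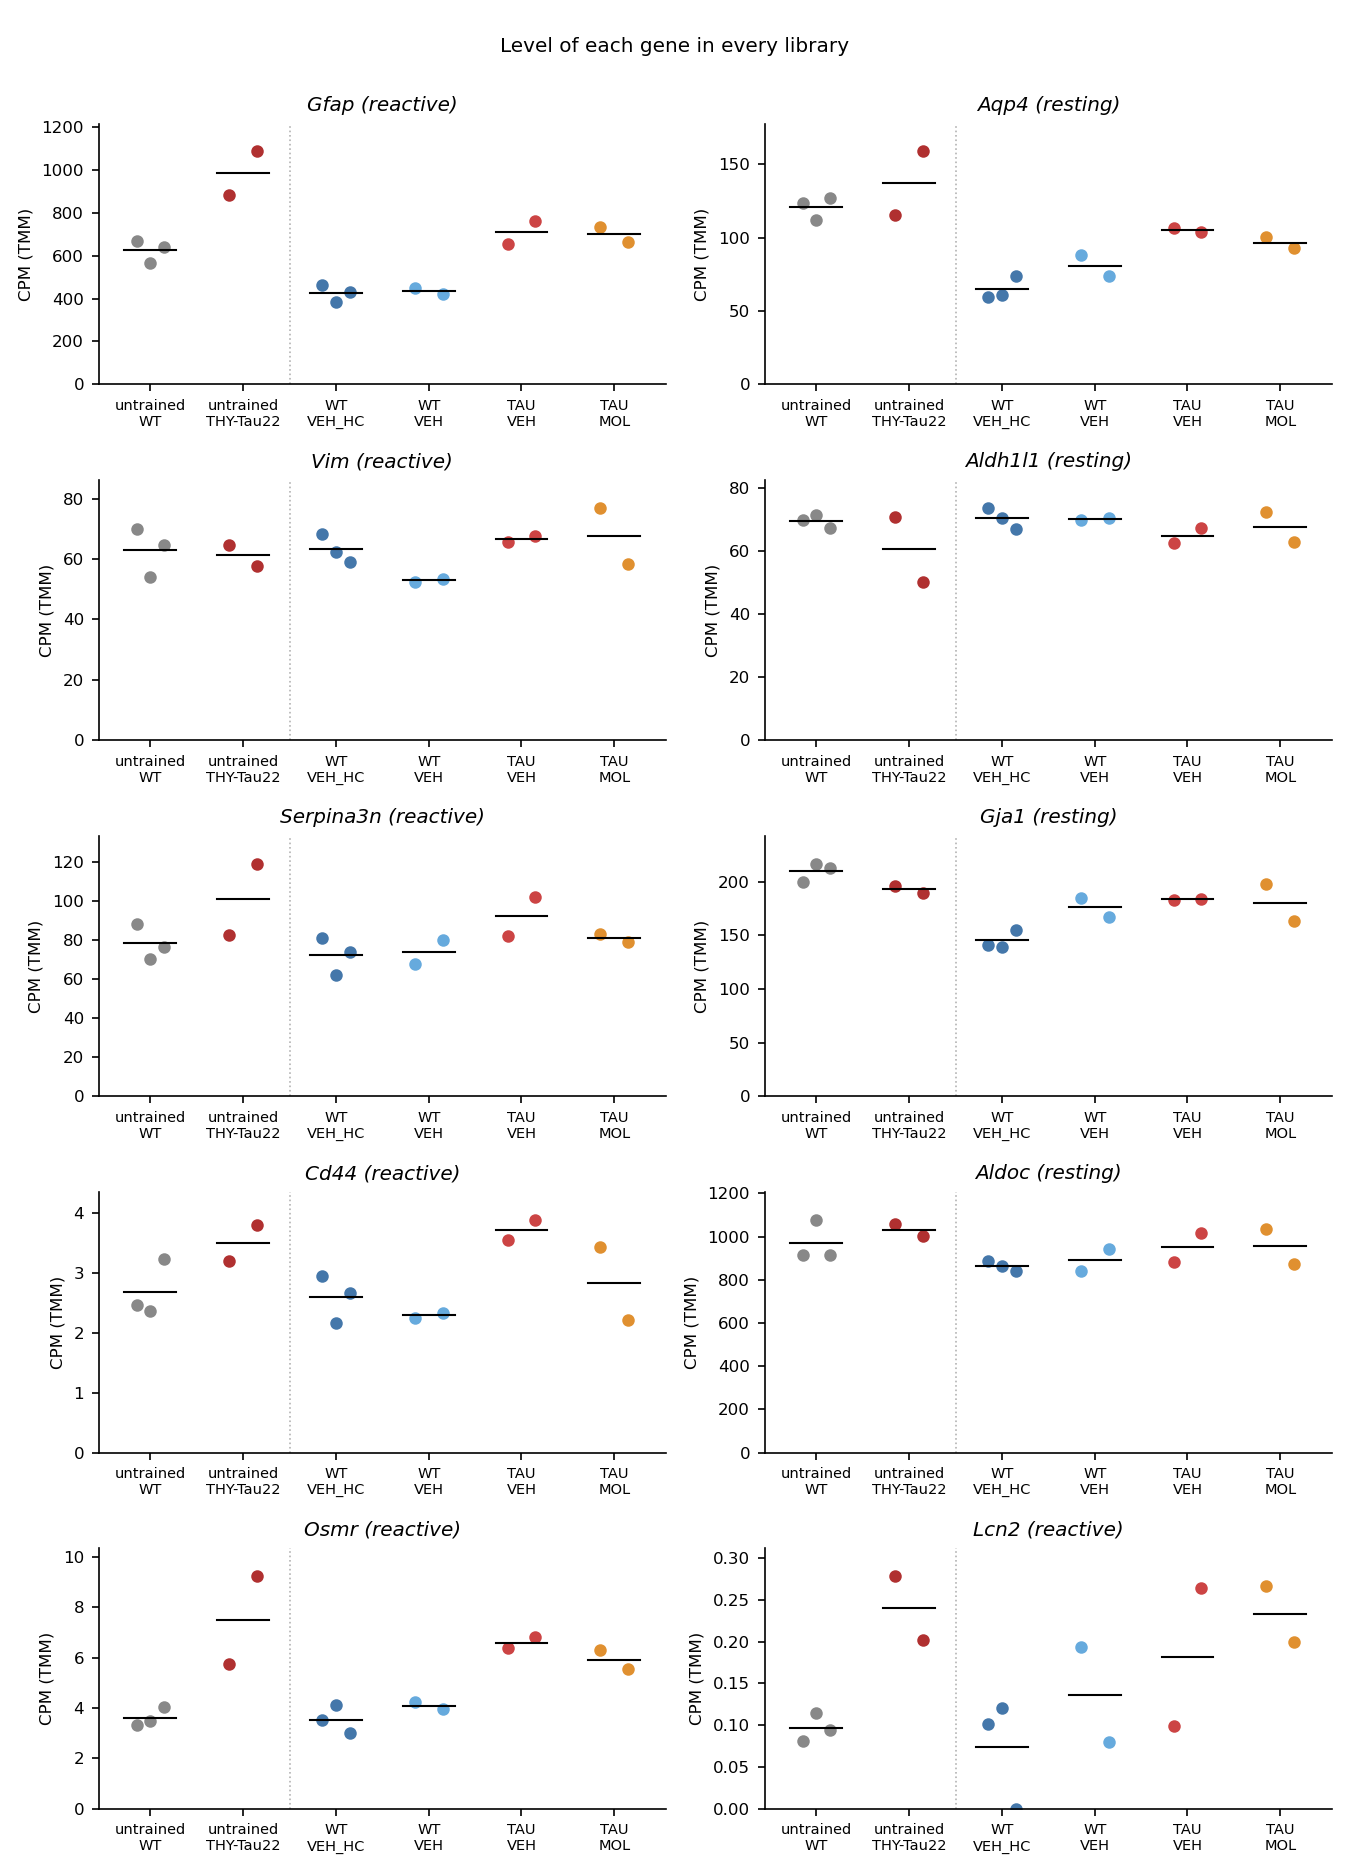
Level of each of the 10 genes in every library, in CPM with TMM scaling (vertical axes, linear, starting at 0), for the 2 untrained groups and the 4 groups of the learning experiment, which a dotted line separates. Points are libraries and bars are group means. Gfap and Osmr lie higher in all THY-Tau22 libraries than in all WT libraries of the same experiment, and Aldh1l1 stays between 62.5 and 73.9 CPM in every library of the learning experiment.

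Gfap, the filament gene by which reactive astrocytes are usually stained, was higher in every THY-Tau22 library than in any WT library of its experiment. In untrained mice it stood at 668, 567 and 642 CPM in the WT libraries and at 883 and 1086 CPM in the THY-Tau22 libraries. These groups do not overlap, and the lower THY-Tau22 library lies well above the highest WT library. The log2 difference was 0.65 (standard error 0.14, 95% interval 0.35 to 0.96), and its adjusted p of 0.279 in the quasi-likelihood test of edgeR missed the limit of 0.05. That test called 0.0245% of all tested genes. DESeq2 gave the same contrast an adjusted p of 0.000943 and called it, and edgeR without a filter on low counts also called it (adjusted p = 0.00722), so the call in untrained mice depends on the tool and on this filter.

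In the learning experiment Gfap stood at 465, 386 and 429 CPM in WT VEH_HC, at 451 and 423 CPM in WT VEH, at 654 and 764 CPM in TAU VEH, and at 735 and 664 CPM in TAU MOL. Both WT groups occupy the same low range and both TAU groups the same high range, with a gap between them. Group means rose from 437 ± 20.0 CPM (SD, n = 2) in WT VEH to 709 ± 77.5 CPM (SD, n = 2) in TAU VEH, a 1.62-fold change (log2 0.70, standard error 0.10, adjusted p = 0.00143). Between TAU MOL (699 ± 50.5 CPM, SD, n = 2) and WT VEH the change was 1.60-fold (log2 0.68, adjusted p = 0.00993). TAU VEH and TAU MOL are set against the same WT VEH libraries, so these comparisons share their controls. Against the home cage group (427 ± 39.6 CPM, SD, n = 3) Gfap was 1.66-fold higher in TAU VEH (adjusted p = 0.000247) and 1.64-fold higher in TAU MOL (adjusted p = 0.000783). In the order WT VEH_HC, WT VEH, TAU MOL, TAU VEH, the first 2 groups and the last 2 groups did not differ beyond their spread. The difference between TAU VEH and WT VEH was called under all 15 alternatives. That between TAU MOL and WT VEH was lost without WT VEH replicate 1 (adjusted p = 0.0648), WT VEH replicate 2 (0.0676), TAU MOL replicate 1 (0.104) or TAU MOL replicate 2 (0.0679), which each leave 1 library in a group.

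Osmr, the receptor gene upstream of JAK and STAT3, showed the largest ratio among the 5 tested reactive genes in untrained mice, from a level far below that of Gfap. It stood at 3.32, 3.48 and 4.05 CPM in untrained WT libraries and at 5.74 and 9.25 CPM in untrained THY-Tau22 libraries. The groups do not overlap, but the pair of THY-Tau22 libraries lies farther apart than the WT libraries do. The log2 difference was 1.05 (standard error 0.22, 95% interval 0.55 to 1.55) with an adjusted p of 0.313 in edgeR's quasi-likelihood test, whereas DESeq2 gave 0.0238 and edgeR without the low-count filter 0.00257. Among the mice of the learning experiment Osmr stood at 3.51, 4.13 and 2.99 CPM in WT VEH_HC, at 4.25 and 3.95 CPM in WT VEH, at 6.37 and 6.83 CPM in TAU VEH, and at 6.32 and 5.53 CPM in TAU MOL. Every TAU library is again above every WT library. Osmr rose 1.61-fold in TAU VEH compared with WT VEH (log2 0.68, standard error 0.16, adjusted p = 0.0154), while TAU MOL stood 1.45 times as high as WT VEH without passing the limit (log2 0.53, 95% interval 0.18 to 0.88, adjusted p = 0.0812). Against WT VEH_HC it rose 1.86-fold in TAU VEH (adjusted p = 0.000878) and 1.67-fold in TAU MOL (adjusted p = 0.00349). The call between TAU VEH and WT VEH was lost after correction for GC content and length (log2 0.57, adjusted p = 0.0858). It was also lost without WT VEH replicate 1 (adjusted p = 0.0664), WT VEH replicate 2 (0.114), TAU VEH replicate 1 (0.0751) or TAU VEH replicate 2 (0.0855).

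Cd44, the hyaluronan receptor, was scarce and was not called in any comparison. It stood at 2.46, 2.36 and 3.23 CPM in untrained WT libraries, at 3.19 and 3.80 CPM in untrained THY-Tau22 libraries, at 2.25 and 2.33 CPM in WT VEH, at 3.55 and 3.89 CPM in TAU VEH, and at 3.43 and 2.22 CPM in TAU MOL. TAU VEH lies apart from WT VEH, whereas 1 TAU MOL library lies with TAU VEH and the other with WT VEH. The log2 difference between TAU VEH and WT VEH was 0.69 (95% interval 0.21 to 1.18, adjusted p = 0.0607), as large as that of Gfap but with a wider interval. It passed the limit under 5 of 15 alternatives, which were library size alone (adjusted p = 0.0239), no filter on low counts (0.0126) and the fits without WT VEH_HC replicate 2 (0.0295), TAU MOL replicate 1 (0.0402) or TAU MOL replicate 2 (0.0386). The difference of TAU VEH from WT VEH_HC (log2 0.52, adjusted p = 0.0617) passed it under 5 of 15 as well, with the lowest adjusted p at 0.0182.

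Serpina3n, the protease inhibitor gene, stood at 88.2, 70.5 and 76.6 CPM in untrained WT libraries and at 82.7 and 119 CPM in untrained THY-Tau22 libraries, which overlap. The libraries of the learning experiment gave 81.3, 62.3 and 74.1 CPM in WT VEH_HC, 67.7 and 80.0 CPM in WT VEH, 82.1 and 102 CPM in TAU VEH, and 83.1 and 79.2 CPM in TAU MOL. Only TAU VEH lies above every WT library, and by a small margin. Its log2 difference from WT VEH was 0.32 (standard error 0.13, adjusted p = 0.143), which passed the limit under 4 of 15 alternatives (lowest adjusted p = 0.00345). That from WT VEH_HC was 0.34 (standard error 0.12, adjusted p = 0.0425) and passed the limit. This call was lost without TAU VEH replicate 2 (log2 0.18, adjusted p = 0.389), without WT VEH_HC replicate 2 (adjusted p = 0.0874) or 3 (0.0639), without WT VEH replicate 2 (0.0503), and without TAU MOL replicate 1 (0.0572) or 2 (0.0574).

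Vim, the partner of Gfap in the filaments of reactive astrocytes, did not share its pattern. It stood at 69.8, 54.1 and 64.7 CPM in untrained WT libraries and at 64.8 and 57.8 CPM in untrained THY-Tau22 libraries, with a log2 difference of -0.04 (95% interval -0.34 to 0.26). After injection it stood at 68.2, 62.2 and 59.1 CPM in WT VEH_HC, at 52.4 and 53.4 CPM in WT VEH, at 65.5 and 67.6 CPM in TAU VEH, and at 77.0 and 58.2 CPM in TAU MOL. The low group is WT VEH, and both TAU groups overlap the home cage group. The log2 difference of TAU VEH was 0.33 from WT VEH (95% interval 0.08 to 0.58, adjusted p = 0.0804) and 0.08 from WT VEH_HC (adjusted p = 0.612). The former passed the limit under 5 of 15 alternatives, with the lowest adjusted p at 0.00278. Among these were DESeq2 (adjusted p = 0.0201) and edgeR without either TAU MOL library.

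Lcn2, the lipocalin gene, was close to absent. It was counted 3, 4 and 3 times in untrained WT libraries, 9 and 6 times in untrained THY-Tau22 libraries, 4, 6 and 0 times in WT VEH_HC, 8 and 3 times in WT VEH, 5 and 7 times in TAU VEH, and 12 and 8 times in TAU MOL. The untrained groups do not overlap, with 0.0810 to 0.115 CPM in WT and 0.202 and 0.279 CPM in THY-Tau22 libraries, but the low-count filter left Lcn2 out of that test. With 12 counts at most in a library, and a count of 0 that allows up to 3, no ratio is given here. The ranges of Lcn2 in the closing section are printed only to show how unsteady its values are.

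Counted over the class, 0 of the 5 tested reactive genes were called by edgeR in untrained mice, where 0.00613% of all tested genes were called higher. Of these 5, 3 had an unadjusted p under 0.05 and DESeq2 called 2, and 2 (Gfap and Osmr) did not overlap between the groups, with the THY-Tau22 values above, beside 8.99% of all tested genes. For TAU VEH against WT VEH, 2 of 6 were called higher (Gfap and Osmr) beside 3.61% of all tested genes, and 5 of 6 had higher values in both TAU VEH libraries than in both WT VEH libraries, beside 28.5% of all tested genes. For TAU MOL against WT VEH, 1 of 6 was called higher (Gfap) beside 0.612% of all tested genes, and 4 of 6 were higher in both TAU MOL libraries, beside 25.6%, or 3 of 5 without the scarce Lcn2. Against WT VEH_HC the counts were 3 of 6 for TAU VEH (beside 16.2%) and 2 of 6 for TAU MOL (beside 14%). No reactive gene was called lower in any of these comparisons. The median log2 difference of the 5 reactive genes other than Lcn2 was 0.38 in untrained mice, 0.68 in TAU VEH and 0.35 in TAU MOL against WT VEH, where the median over all tested genes was -0.01, 0.00 and 0.00.

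**Figure D2:**
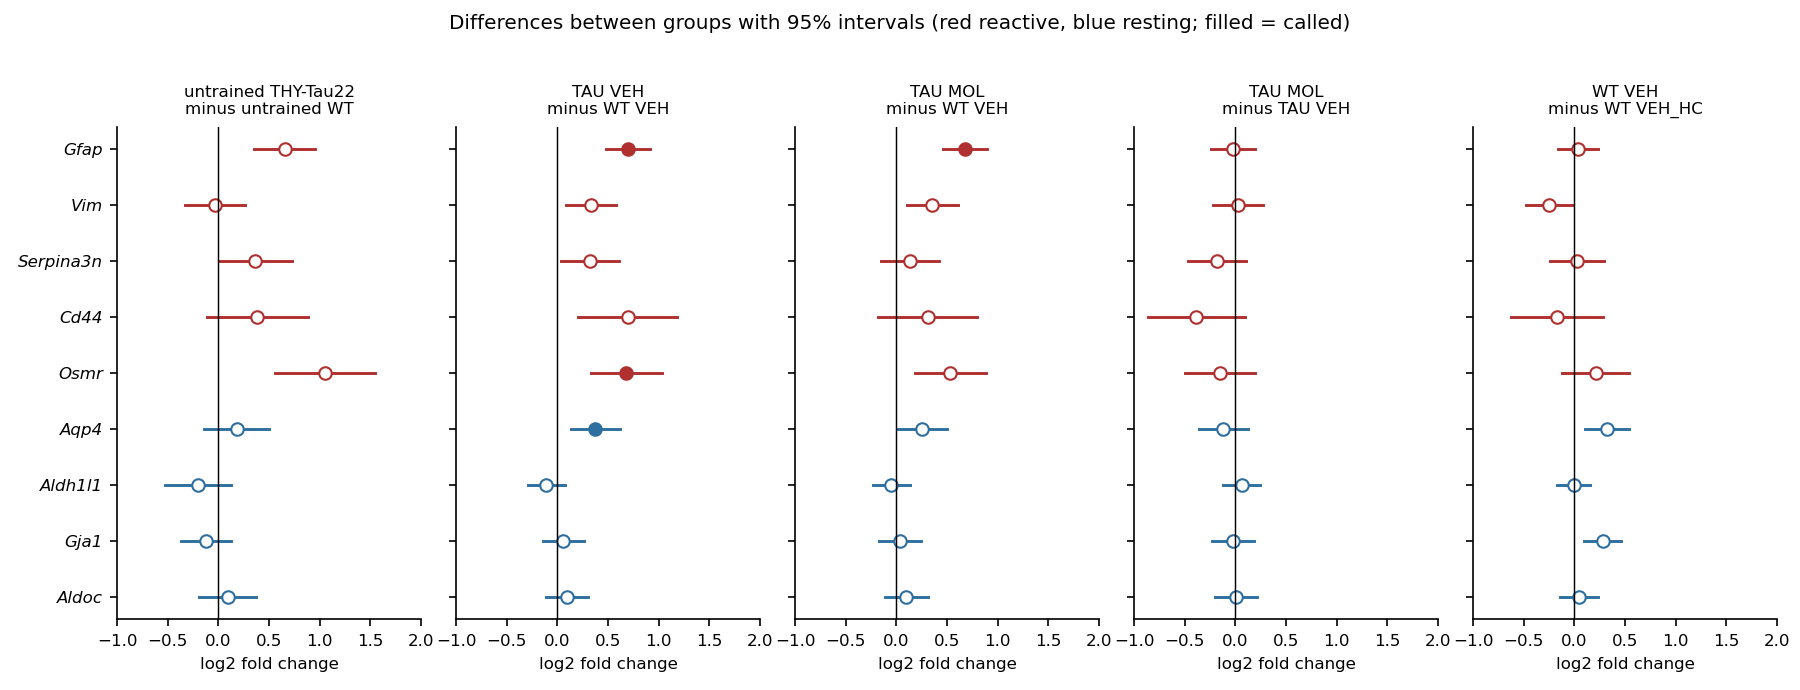
Log2 differences (horizontal axis) with 95% intervals for 9 genes, without Lcn2, in 5 comparisons. Reactive genes are red, resting genes blue, and filled points passed the limits of the edgeR test. Gfap lies between 0.65 and 0.70 in the 3 comparisons of THY-Tau22 with WT mice and at -0.02 for TAU MOL against TAU VEH, and the intervals of Aldh1l1 and Aldoc include 0 in all 5.

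Among the resting genes, Aqp4 was called higher in TAU VEH compared with WT VEH, and the other 3 were not. Aqp4, the water channel of the endfeet, stood at 124, 112 and 127 CPM in untrained WT libraries and at 115 and 159 CPM in untrained THY-Tau22 libraries, which overlap (log2 0.18, 95% interval -0.14 to 0.50). Among injected mice it stood at 59.8, 60.6 and 74.2 CPM in WT VEH_HC, at 88.2 and 73.9 CPM in WT VEH, at 107 and 104 CPM in TAU VEH, and at 100.4 and 92.9 CPM in TAU MOL. All TAU libraries lie above all WT libraries, and the lower WT VEH library reaches the highest WT VEH_HC library. Aqp4 rose 1.30-fold in TAU VEH compared with WT VEH (log2 0.37, standard error 0.11, adjusted p = 0.0439), 1.62-fold compared with WT VEH_HC (adjusted p = 0.000462), and 1.49-fold in TAU MOL compared with WT VEH_HC (adjusted p = 0.00202). The log2 difference between TAU MOL and WT VEH was 0.25 (adjusted p = 0.231).

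The call of Aqp4 between TAU VEH and WT VEH rested on the processing and on each of several libraries. It was lost after correction for GC content and length (log2 0.23, adjusted p = 0.238). It was lost without WT VEH replicate 2 (log2 0.25, adjusted p = 0.329), TAU VEH replicate 1 (adjusted p = 0.217), TAU VEH replicate 2 (0.127), TAU MOL replicate 1 (0.0622) or TAU MOL replicate 2 (0.0625). Aqp4 has the lowest exon GC content of the 10 genes, 41.2%. Its call between TAU VEH and WT VEH_HC was kept under all 15 alternatives, with a log2 difference of 0.40 (adjusted p = 0.0181) after the correction, and that between TAU MOL and WT VEH_HC was lost only after it (log2 0.28, adjusted p = 0.0616).

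Gja1, the gap junction gene, separated the home cage group from all trained groups. It stood at 141, 139 and 155 CPM in WT VEH_HC, at 185 and 168 CPM in WT VEH, at 183 and 184 CPM in TAU VEH, and at 198 and 163 CPM in TAU MOL. Every library of a trained mouse lies above the highest home cage library, and the 3 trained groups overlap. Gja1 rose 1.26-fold in TAU VEH (log2 0.34, adjusted p = 0.00975) and 1.24-fold in TAU MOL (log2 0.31, adjusted p = 0.0173) compared with WT VEH_HC, and was 1.21 times as high in WT VEH without passing the limit (log2 0.28, standard error 0.09, adjusted p = 0.0623). After correction for GC content and length the log2 differences of TAU VEH and TAU MOL from WT VEH_HC were 0.11 (adjusted p = 0.410) and 0.10 (adjusted p = 0.442). The call in TAU VEH was also lost without TAU VEH replicate 1 (adjusted p = 0.0629) or TAU VEH replicate 2 (0.0614), and that in TAU MOL without TAU MOL replicate 1 (log2 0.17, adjusted p = 0.249). In untrained mice Gja1 stood at 200.2, 217 and 212 CPM in WT and at 196 and 190 CPM in THY-Tau22 libraries, which lie slightly apart (log2 -0.12, adjusted p = 0.914).

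Aldh1l1, the marker of astrocytes as a class, was the steadiest of the genes in the learning experiment. It stood at 73.9, 70.6 and 67.3 CPM in WT VEH_HC, at 70.0 and 70.5 CPM in WT VEH, at 62.5 and 67.5 CPM in TAU VEH, and at 72.6 and 63.0 CPM in TAU MOL. The TAU VEH values lie just below those of WT VEH and overlap WT VEH_HC. The log2 difference between TAU VEH and WT VEH was -0.11 (95% interval -0.29 to 0.07, adjusted p = 0.442), and its sign turned under the scalings listed in the closing section. In untrained mice Aldh1l1 stood at 70.0, 71.6 and 67.5 CPM in WT libraries and at 71.0 and 50.2 CPM in THY-Tau22 libraries, so 1 THY-Tau22 library lies with the WT libraries and the other far below them.

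Aldoc, the aldolase gene, stood at 887, 864 and 842 CPM in WT VEH_HC, at 841 and 942 CPM in WT VEH, at 884 and 1018 CPM in TAU VEH, and at 1036 and 873 CPM in TAU MOL. The trained groups overlap each other. Its log2 difference between TAU VEH and WT VEH was 0.09 (95% interval -0.11 to 0.30), and it was called in no comparison. In untrained mice the values were 913, 1078 and 914 CPM in WT and 1058 and 1003 CPM in THY-Tau22 libraries, which overlap.

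Over the class, 0 of 4 resting genes were called in untrained mice by edgeR or DESeq2 (0 with an unadjusted p under 0.05). Called were 1 of 4 in TAU VEH compared with WT VEH (Aqp4), 0 of 4 between TAU MOL and WT VEH (1 with an unadjusted p under 0.05), and 2 of 4 (Aqp4 and Gja1) for each TAU group compared with WT VEH_HC, all of them higher. The shares of all tested genes called higher in these comparisons are those given above. Their median log2 difference was -0.02 in untrained mice, 0.08 in TAU VEH and 0.07 in TAU MOL against WT VEH, and 0.24 and 0.23 against WT VEH_HC.

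The ratio of Gfap to Aldh1l1 counts within each library does not depend on the scaling between libraries. It was 9.53, 7.92 and 9.51 in untrained WT libraries and 12.4 and 21.6 in untrained THY-Tau22 libraries. It was 6.29, 5.47 and 6.38 in WT VEH_HC, 6.45 and 6.0 in WT VEH. The TAU VEH libraries gave 10.5 and 11.3, and the TAU MOL libraries 10.1 and 10.5. All THY-Tau22 libraries lie above all WT libraries of their experiment. The ratio of Osmr to Aldh1l1 counts was likewise 0.0445 to 0.0608 in the 5 WT libraries and 0.0871 to 0.102 in the 4 TAU libraries of the learning experiment. For Aqp4 the ranges were 0.808 to 1.26 and 1.38 to 1.70, and for Vim 0.749 to 0.922 and 0.923 to 1.06, which almost touch. In untrained mice the Vim ratio was 0.755 to 0.996 in WT and 0.912 and 1.15 in THY-Tau22 libraries, and the Aqp4 ratio was 1.57 to 1.89 in WT and 1.63 and 3.16 in THY-Tau22 libraries, and both overlap. These ratios show unequal amounts within a library and not which of the 2 genes differed. They were not corrected for GC content, on which the libraries of the 2 genotypes depended differently in the learning experiment. Aldh1l1 has 54.3% GC over its exons, against 44.6% for Osmr and 41.2% for Aqp4. The part of GC content in these ratios was not tested.

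The comparison of TAU MOL with TAU VEH asked what the activator adds to its carrier in trained THY-Tau22 mice. None of the 10 genes was called or had an unadjusted p under 0.05, and DESeq2, which gave Cd44 and Lcn2 no adjusted p, called none of the others. The test of edgeR called 0% of all tested genes, of which 1064 had an unadjusted p under 0.05, and DESeq2 called 56 genes. The log2 difference was -0.02 for Gfap (95% interval -0.24 to 0.20), -0.15 for Osmr (-0.49 to 0.19), -0.18 for Serpina3n (-0.47 to 0.11), -0.39 for Cd44 (-0.86 to 0.09) and 0.02 for Vim (-0.22 to 0.27). The Gfap libraries of these groups interleave. For Osmr and Cd44 both TAU MOL libraries lie below both TAU VEH libraries, by a margin that is small beside the spread within TAU MOL. Among resting genes Aqp4 was lower in both TAU MOL libraries, with a log2 difference of -0.12 (-0.36 to 0.12), and Aldh1l1, Gja1 and Aldoc overlapped. Of all tested genes, 17.4% were lower in both TAU MOL libraries than in both TAU VEH libraries. These intervals do not show that the groups are alike, since they leave room for a Gfap difference of up to 0.24 on the log2 scale.

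The comparison of WT VEH with WT VEH_HC asked what training changes in WT mice. None of the 10 genes was called in either direction by edgeR, where 8.4% of all tested genes were called, and 3 of them had an unadjusted p under 0.05. The reactive genes gave log2 differences of 0.03 for Gfap (95% interval -0.16 to 0.23), 0.21 for Osmr (adjusted p = 0.392), 0.03 for Serpina3n (adjusted p = 0.914), -0.17 for Cd44 (adjusted p = 0.621) and -0.25 for Vim (95% interval -0.48 to -0.03, adjusted p = 0.142). The resting genes Aqp4 and Gja1 gave 0.32 (adjusted p = 0.0680) and 0.28 (adjusted p = 0.0623). Both passed the limit without WT VEH_HC replicate 3 (adjusted p = 0.0103 for Aqp4 and 0.0316 for Gja1). DESeq2 called Aqp4 and Gja1 as well (adjusted p = 0.0241 and 0.0233). In this comparison all 14 choroid plexus markers were higher in WT VEH, with a median log2 difference of 3.50, and their part in the values of Aqp4 and Gja1 was not tested.

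Whether the difference between genotypes was larger in trained and injected mice than in untrained mice was tested in 1 fit over all 14 libraries, as the difference of the 2 within-experiment differences. None of the 10 genes passed the limit in edgeR, and none in DESeq2, which gave Lcn2 no adjusted p, where edgeR called 0.129% of all tested genes, and Vim alone had an unadjusted p under 0.05. The estimate for Gfap was 0.08 on the log2 scale (95% interval -0.27 to 0.43, adjusted p = 0.926), for Osmr -0.33 (adjusted p = 0.802), for Cd44 0.34 (adjusted p = 0.815) and for Aqp4 0.23 (adjusted p = 0.802). Vim had the interval farthest from 0, with an estimate of 0.40 (0.01 to 0.78, adjusted p = 0.627). Training, injection and cohort cannot be told apart in this comparison.

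Since the TAU libraries of the learning experiment all had negative GC dependence and the WT libraries positive, values are also given after a correction of each library for GC content and length together, which does not tell these 2 properties apart. Aqp4 (41.2% GC over its exons), Gja1 (44.3%), Osmr (44.6%) and Cd44 (45.1%) are the AT-rich genes of the set, and Serpina3n (51.9%), Aldoc (52.2%), Gfap (52.4%), Lcn2 and Vim (53.7% each) and Aldh1l1 (54.3%) the GC-rich ones. After each library was corrected for GC content and length, the log2 difference between TAU VEH and WT VEH was 0.75 for Gfap (adjusted p = 0.00745) and 0.42 for Vim (adjusted p = 0.0624), both larger than before. It was 0.57 for Osmr, 0.58 for Cd44 (adjusted p = 0.202), 0.23 for Aqp4, -0.07 for Gja1 and 0.01 for Aldh1l1. The 4 AT-rich genes, of which Cd44, Aqp4 and Osmr also have the longest exons of the set, had smaller values after the correction, and Gfap, Vim and Aldh1l1 higher ones. Against WT VEH_HC, the corrected Gfap difference was 0.84 in TAU VEH (adjusted p = 0.000858) and 0.81 in TAU MOL (adjusted p = 0.0012), and that of Osmr was 0.70 (adjusted p = 0.0154) and 0.56 (adjusted p = 0.0339).

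**Figure D3:**
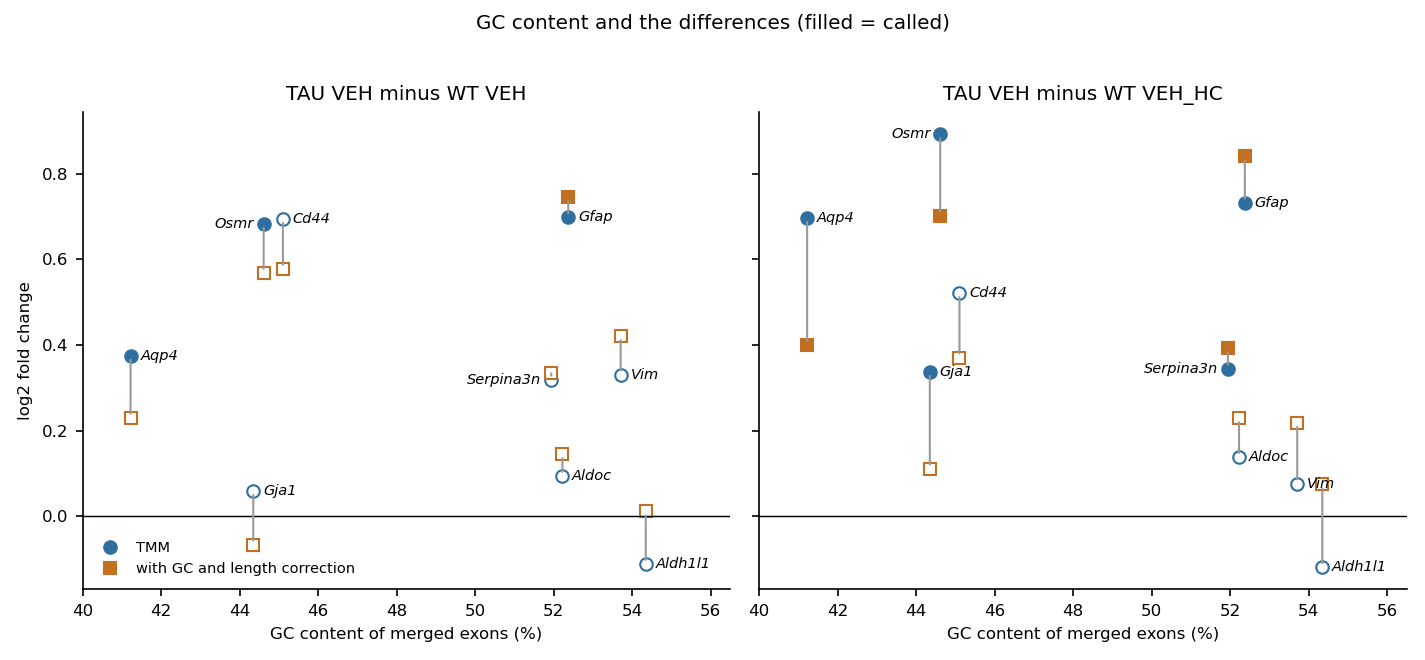
Log2 difference (vertical axis) against the GC content of the exons in percent (horizontal axis) for TAU VEH against WT VEH and TAU VEH against WT VEH_HC. Circles are values with TMM scaling and squares are values after correction of each library for GC content and length. Aqp4, Gja1 and Osmr, at the AT-rich end, move down after the correction, whereas Gfap and Vim move up.

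A wider list of 36 genes of reactive astrocytes, which excludes the 6 named before, showed where Gfap and Osmr stand. In untrained mice 0 of 33 tested genes were called by edgeR and 1 by DESeq2, 4 had an unadjusted p under 0.05, 25 had a positive log2 difference, and the median was 0.23. In TAU VEH compared with WT VEH 4 of 35 rose and 0 fell, with a median of 0.23. Of all tested genes, 3.61% were called higher and 14.4% in either direction. The 4 were Cxcl10, a chemokine of the interferon response (log2 1.98, standard error 0.49, adjusted p = 0.0198, 0.964 against 0.230 CPM), the complement gene C4b (0.74, standard error 0.12, adjusted p = 0.00214), Ggta1, a glycosyltransferase gene (0.71, adjusted p = 0.0176), and Ptgs2, which encodes cyclooxygenase 2 and is also made by neurons (0.50, adjusted p = 0.00455). Only C4b was called under all 15 alternatives. The call of Cxcl10 was lost after correction for GC content and length, without either WT VEH library and without TAU VEH replicate 2 (log2 1.21), and DESeq2 gave it no adjusted p. After the correction 1 of 35 rose. Without 1 library at a time the number higher was 2 to 8, and with scaling by library size alone it was 9. C4b counts are uncertain, since its paralog C4a shares most of its sequence.

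Of this list, 2 of 35 genes rose (C4b, log2 0.75, adjusted p = 0.00996, and Ggta1, 0.72, adjusted p = 0.0333) and 0 fell in TAU MOL compared with WT VEH. Of all tested genes, 0.612% were called higher and 5.63% in either direction. The median of the list was 0.07. The number higher was 1 after the GC correction, and 1 with DESeq2, which gave Ggta1 no adjusted p, and 0 without either WT VEH library or either TAU MOL library. Between TAU MOL and TAU VEH 0 were called by edgeR and 1 by DESeq2, 3 had an unadjusted p under 0.05, and the median was -0.08. Against WT VEH_HC, 12 rose and 2 fell in TAU VEH (median 0.40), and 6 rose and 1 fell in TAU MOL (median 0.19). Of all tested genes, 16.2% were called higher and 34.4% in either direction in TAU VEH. In TAU MOL these shares were 14% and 28.9%. Without 1 library at a time the numbers higher were 5 to 14 and 2 to 11, after the GC correction 7 and 4, and with library size alone 19 and 11 (medians 0.56 and 0.33). Cd14, the coreceptor for endotoxin, rose by 0.996 in TAU VEH (adjusted p = 0.0136) and by 0.956 in TAU MOL (adjusted p = 0.0186) on the log2 scale against WT VEH_HC. The former call was lost without TAU VEH replicate 2 and the latter without either TAU MOL library. Sphk1, a sphingosine kinase gene, fell by 1.36 in TAU VEH (adjusted p = 0.0298), which was lost after the GC correction (-0.97, adjusted p = 0.159) and without either TAU VEH library.

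The wider list of 30 resting astrocyte genes holds those of glutamate uptake, potassium handling and metabolism. In untrained mice 0 of 30 were called by edgeR or DESeq2, 1 had an unadjusted p under 0.05, and the median was 0.00. In TAU VEH compared with WT VEH 1 rose and 6 fell, with a median of -0.05, beside 14.4% of all tested genes called in either direction. Those that fell most were Gpr37l1, an orphan receptor gene (log2 -0.64, adjusted p = 0.00142, 352 ± 11.8 against 550.0 ± 16.0 CPM, SD, n = 2 each), the amino acid transporter gene Slc7a10 (-0.62, adjusted p = 0.00248), Atp1b2, a sodium pump subunit (-0.59, adjusted p = 0.00295), and the GABA transporter gene Slc6a11 (-0.45, adjusted p = 0.00198). Between TAU MOL and WT VEH 3 fell, Slc7a10 (-0.48), Gpr37l1 (-0.46) and Slc6a11 (-0.44), and Slc1a2, the main glutamate transporter gene, rose (0.38, adjusted p = 0.0293), beside 5.63% of all tested genes. In TAU MOL 0 of the 30 were called after correction for GC content and length, and 0 without any single WT VEH or TAU MOL library. The correction left 0 higher and 3 lower in TAU VEH with a median of 0.02, and with scaling by library size alone 3 rose and 4 fell with a median of 0.09. In WT VEH compared with WT VEH_HC 5 rose and 0 fell beside 8.4% of all tested genes called in either direction. Among the 5 were Ppp1r3c, a glycogen targeting subunit (log2 0.85, adjusted p = 0.000868, 41.0 ± 6.46 CPM, SD, n = 2, against 22.8 ± 2.02 CPM, SD, n = 3), the zinc transporter gene Slc39a12 (0.59, adjusted p = 0.0185), the connexin 30 gene Gjb6 (0.55, adjusted p = 0.0103) and S100b, a calcium-binding protein gene (0.43, adjusted p = 0.0434), which was called under 6 of 15 alternatives. Without 1 library at a time the number higher in WT VEH was 1 (without WT VEH replicate 1) to 9 (without WT VEH_HC replicate 3), and it was 9 with DESeq2 and 3 after the GC correction. Against WT VEH_HC, 9 rose and 9 fell in TAU VEH (median 0.05, beside 34.4%), and 9 rose and 3 fell in TAU MOL (median 0.06, beside 28.9%). The log2 differences of TAU VEH and TAU MOL were 0.84 and 0.64 for Ppp1r3c, 0.67 and 0.70 for Gjb6 and 0.60 and 0.50 for Slc39a12, which rose, and -0.54 and -0.52 for Slc6a11, which fell. After the GC correction 6 rose and 2 fell in TAU VEH and 4 rose and 3 fell in TAU MOL, and Slc39a12 was called in neither. With library size alone 15 rose and 3 fell in TAU VEH (median 0.21) and 15 rose and 1 fell in TAU MOL (median 0.20), so the balance of directions depends on the scaling. Without 1 library at a time 5 to 9 rose and 4 to 9 fell in TAU VEH, and 2 to 9 rose and 1 to 6 fell in TAU MOL.

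**Figure D4:**
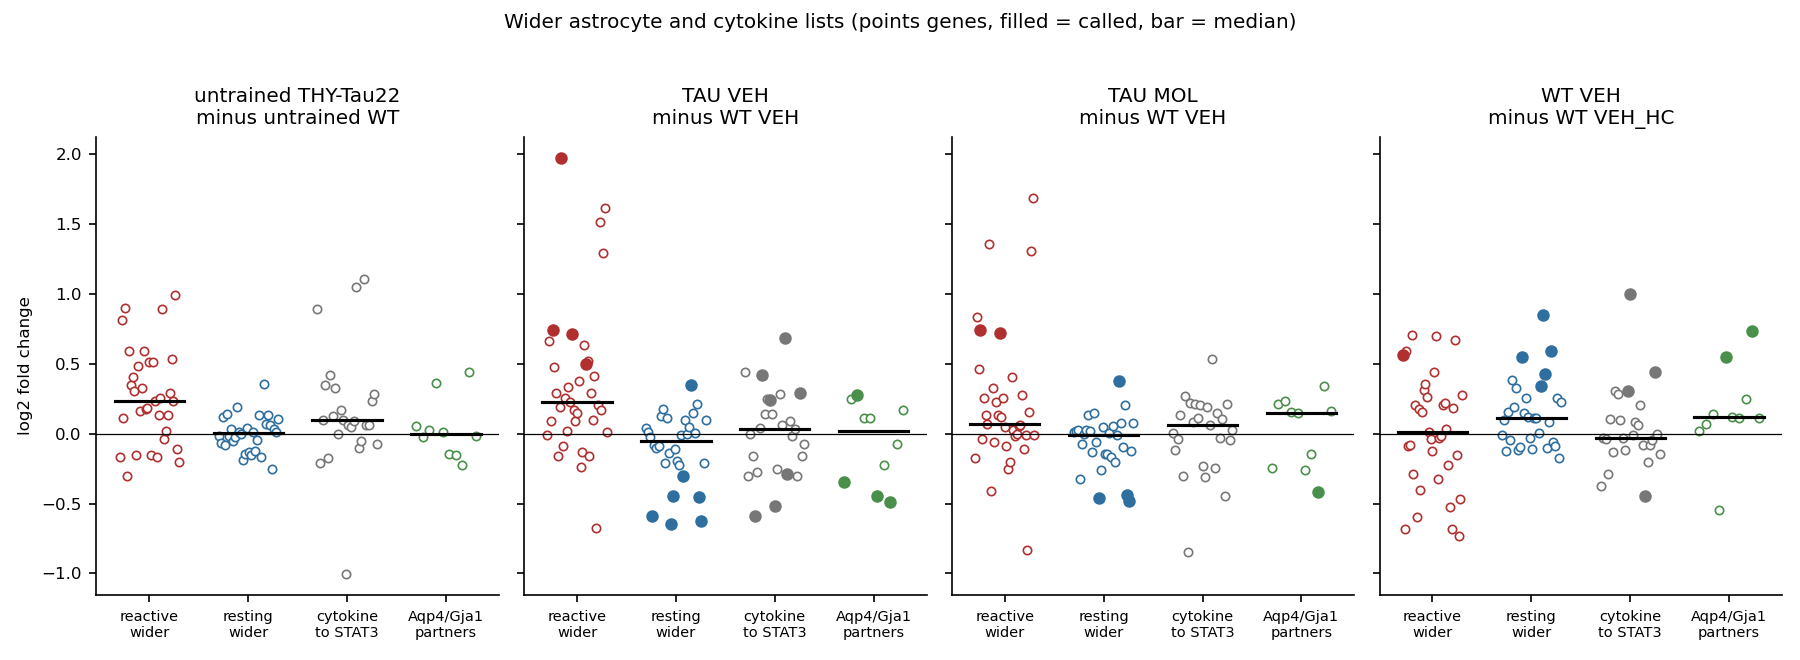
Log2 difference of every tested gene (points) of 4 wider lists in 4 comparisons, with filled points for genes that passed the limits of the edgeR test and a bar at the median of the list. The reactive list has a median of 0.23 in untrained mice and in TAU VEH against WT VEH, and the resting list medians of 0.00 and -0.05.

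A list of 30 genes of cytokine signalling holds those of the route to STAT3. It also holds genes of other routes, among them Il1r1, Tgfbr1, Smad3 and Junb. Of these 30 genes, 24 were tested in untrained mice, and 0 were called by edgeR and 2 by DESeq2, with 5 at an unadjusted p under 0.05. In TAU VEH compared with WT VEH 4 of 25 rose and 3 fell (median 0.03, beside 14.4% of all tested genes). Besides Osmr, these included the interleukin 1 receptor gene Il1r1 (log2 0.42, adjusted p = 0.0339), which rose, and the receptor gene Cntfr of ciliary neurotrophic factor (-0.59, adjusted p = 0.00234) and Junb, an AP-1 subunit and activity-regulated gene (-0.52, adjusted p = 0.00295), which fell. Junb also rose from 45.9 ± 1.83 CPM (SD, n = 3) in WT VEH_HC to 91.8 ± 0.988 CPM (SD, n = 2) in WT VEH (adjusted p = 7.58e-05), together with Tgfbr1 (log2 0.44, adjusted p = 0.0107) and Jak2 (log2 0.31, adjusted p = 0.0455), while Smad3 fell (log2 -0.44, adjusted p = 0.0323). The calls of Jak2 and Smad3 were lost after the GC correction (adjusted p = 0.108 and 0.0616) and were kept under 6 and 10 of 15 alternatives. After correction for GC content and length 0 of 25 were called between TAU VEH and WT VEH, and without 1 library at a time 0 to 6 were called higher and 2 to 3 lower. In TAU MOL 0 of 25 were called by edgeR against WT VEH (8 at an unadjusted p under 0.05, 1 by DESeq2) and 0 against TAU VEH (3 at an unadjusted p under 0.05, 0 by DESeq2). Against WT VEH_HC, 7 rose and 4 fell in TAU VEH (beside 34.4%) and 6 rose and 2 fell in TAU MOL (beside 28.9%), after the GC correction 5 and 4 rose and 0 fell, and with library size alone 9 and 7 rose and 1 fell in each.

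The 10 genes that anchor the Aqp4 channel or accompany connexin 43 gave a further view of the endfoot. In untrained mice 0 of 10 were called by edgeR or DESeq2, and 0 had an unadjusted p under 0.05. In TAU VEH compared with WT VEH 1 rose and 3 fell, beside 14.4% of all tested genes. Dtna, a dystrobrevin gene, rose (log2 0.28, adjusted p = 0.0118), and the adhesion gene Hepacam (-0.45, adjusted p = 0.0131) and the dystroglycan gene Dag1 (-0.34, adjusted p = 0.00751) were among those that fell. After correction for GC content and length 0 of 10 were called in TAU VEH, and without 1 library at a time 0 to 2 were called higher and 1 to 3 lower. Sntb1 (0.74, adjusted p = 0.0400) and Gjb6 rose in WT VEH compared with WT VEH_HC. The Sntb1 call was kept under 5 of 15 alternatives and was lost with DESeq2 and without 8 of the 9 libraries in turn. Against WT VEH_HC, 5 rose and 3 fell in TAU VEH (beside 34.4%) and 5 rose and 1 fell in TAU MOL (beside 28.9%), and 0 fell in each after the GC correction (3 higher) or with library size alone (5 higher).

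Values of other cell types stood beside these differences as follows. The sum of 15 microglial markers was 636 to 663 CPM in untrained WT and 733 to 756 CPM in untrained THY-Tau22 libraries, with 14 of 15 log2 differences positive, a median of 0.22, 0 called by edgeR, 6 at an unadjusted p under 0.05 and 1 called by DESeq2. Among injected mice this sum was 489 to 569 CPM in WT VEH_HC, 585 to 610 CPM in WT VEH, 576 to 668 CPM in TAU VEH and 575 to 646 CPM in TAU MOL, so the trained groups overlap. Against WT VEH_HC 7 of 15 microglial markers rose in each TAU group, beside 16.2% of all tested genes called higher in TAU VEH and 14% in TAU MOL. Without 1 library at a time 2 to 8 and 2 to 9 rose, and with library size alone 12 and 11. The sum of 9 neuronal markers was 19133 to 19260 CPM in WT VEH and 14367 to 14785 CPM in TAU VEH. Single neuronal markers did not all follow this sum, since 5 of 9 had a positive log2 difference, 4 were called lower beside 14.4% of all tested genes called in either direction (1 after the GC correction, and 3 lower and 4 higher with library size alone) and the median was 0.04. The choroid plexus sum, which was highest in WT VEH, was 2494 CPM at most there against 298 CPM at most in TAU VEH, and all 14 of its markers were called lower between these groups. In untrained mice it was 288 to 460 CPM in WT and 418 and 1340 CPM in THY-Tau22 libraries. No marker of these 3 lists was at 0 in any group. The part of these cell types in the values of the astrocyte genes was not tested.

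The genes whose pattern was most like that of Gfap were sought among the 16215 genes tested in both experiments. Likeness was the root mean square difference between log2 CPM profiles over the 14 libraries, each centred on the mean of its experiment, and its median over all genes was 0.405. The nearest was C4b (0.114 on the log2 scale), followed by Gbp7, an interferon-induced GTPase gene (0.147), Glra2, a glycine receptor subunit gene (0.153), Mpeg1, a perforin-like gene of macrophages (0.154), and Cd84, an immune cell surface receptor gene (0.155). C4b stood at 43.9 to 63.5 CPM in untrained WT libraries and at 91.6 and 113 CPM in untrained THY-Tau22 libraries. Among injected mice it stood at 74.7 to 89.9 CPM over the 5 WT libraries, at 112 and 147 CPM in TAU VEH, and at 137 and 123 CPM in TAU MOL. As for Gfap, no THY-Tau22 library overlaps a WT library of its experiment. C4b was picked for its likeness to Gfap over these same libraries, so its separation is not independent of that of Gfap. Mpeg1 stood at 15.2 to 21.8 CPM in the WT libraries and at 24.8 to 36.9 CPM in the TAU libraries of the learning experiment. Among the other 8 tested genes of the set, Osmr ranked 84th in likeness, Aqp4 144th, Serpina3n 253rd and Cd44 394th, whereas Aldoc ranked 3300th, Vim 3588th, Gja1 3926th and Aldh1l1 10059th. The points share libraries and depth, and no test was made of this order.

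**Figure D5:**
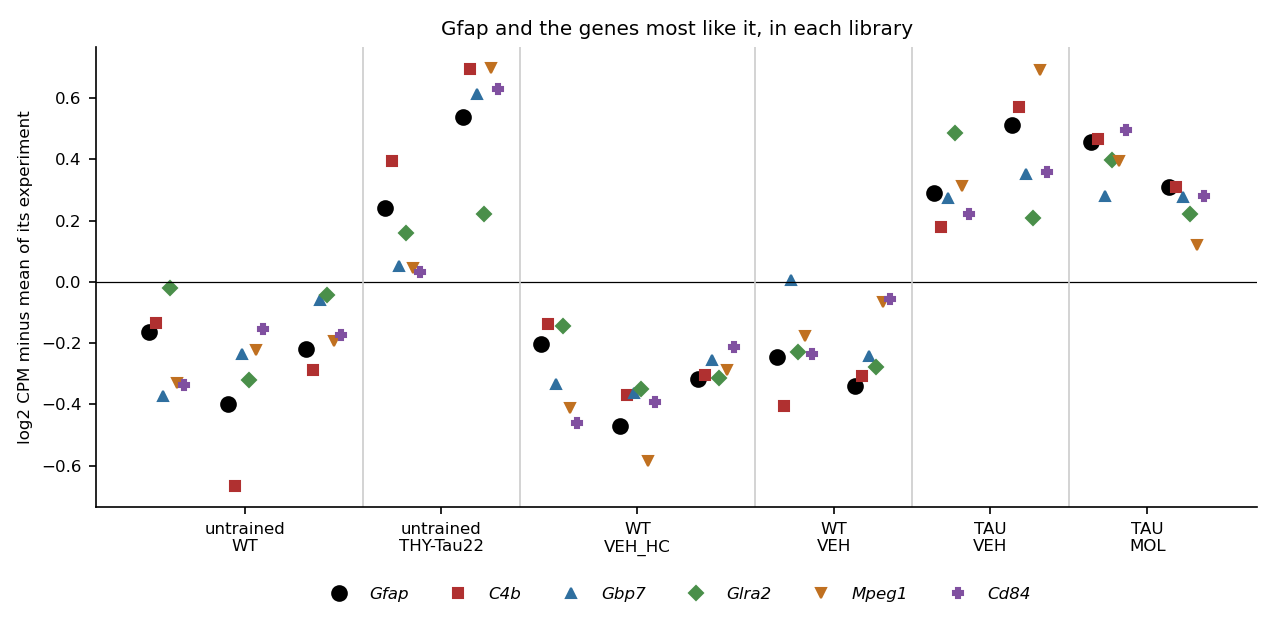
Log2 CPM of Gfap and of the 5 genes most like it, centred on the mean of each experiment (vertical axis), in each of the 14 libraries (horizontal axis), grouped as in the labels. The 6 sets of points lie mostly below 0 in WT libraries and above 0 in THY-Tau22 libraries, with the highest Gfap value (0.54) in the second untrained THY-Tau22 library.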

How the data were processed

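The 14 RNA-seq libraries of the dorsal hippocampus fall into 6 groups. Per the labels and the study's methods, the authors prepared unstranded libraries from poly-A RNA and mapped single-end reads on mm9 by TopHat2 2.0.10 and Bowtie2 2.1.0, and counted reads on Ensembl genes with HTSeq 0.5.4p3; CASAVA 1.8.2 and DESeq2 are also named in the submitters' processing notes. The deposited read counts hold whole numbers, not normalized, from which every value here was computed. The deposited normalized signal, each count divided by 1 factor per library, was read only to check columns. In the table of the learning experiment, 138 lines without values were left out, and 0 value columns lacked a sample.

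Counts were tested in edgeR 4.0.16 (R 4.3.3) with TMM factors, filterByExpr and the quasi-likelihood F test, with Benjamini-Hochberg adjustment over 16324 genes (untrained), 16820 (learning, 1 fit over 9 libraries) or 17026 (both). Calls required an adjusted p below 0.05 with a log2 fold change beyond 0.2 in either direction, and 95% intervals are from the same fit. The spread between libraries (common coefficient of variation) was 0.129 untrained and 0.0840 in the learning experiment, to which counting error adds for genes with few counts such as Lcn2, Cd44 and Osmr. In simulated counts the test recovered 10% of genes changed by 0.5 and 87.5% of those changed by 1 (log2) in the untrained comparison (16122 and 16121 genes tested), and 55.5% and 88.5% in TAU MOL against TAU VEH (16626 genes each). False calls numbered 6 beside 20 recovered genes and 18 beside 175 in the former, and 14 beside 111 and 22 beside 177 in the latter. Changed genes were drawn only from those above a limit on the mean count, so scarce genes such as Lcn2 are not covered.

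Alternatives were DESeq2 1.42.0 (genes to which it gave no adjusted p were counted neither as called nor as lost), edgeR with the size factors of DESeq2 or with no TMM factor (library size alone), no filter on low counts, a loess correction for GC content and length (span 0.3), the replicate number as a block and leaving out each library. Exon positions and GC content came from the mm9 annotation, promoters from RefSeq. Summaries and plots used Python 3.11.15, pandas 2.3.3, numpy 2.4.6 and matplotlib 3.10.9. Genes named are the 10 members, up to 4 called genes of largest change per wider list and comparison, the 5 genes most like Gfap, Mapt and Thy1, except 1 list gene that is not reported here. The members and lists were chosen with earlier results of these data known, so the tests are not independent support for a pattern seen before.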

Additional observations from a re-analysis of the deposited data

How the results depend on the processing

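Direction and call of Gfap between TAU VEH and WT VEH, and between either TAU group and WT VEH_HC, were kept under all 15 alternatives. With 2 or 3 libraries a group, leaving out 1 library often leaves a group with 1 library, which is then assumed to vary like the other groups, and the untrained comparison cannot show log2 changes of 0.5 reliably. The cause of the differences below was not tested.

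Genes called in untrained mice (4 in the reported fit) numbered 40 with DESeq2, 11 after the GC and length correction, 125 without a filter and 37 with the replicate block, and members called (0) numbered 2 with DESeq2 and 2 without a filter. In TAU VEH against WT VEH, 468 genes (2423) were called after the GC correction, and members (3) numbered 5 with DESeq2, 1 after the GC correction, 6 with library size alone and 6 without a filter. In TAU MOL against WT VEH, genes (947) numbered 16 after the GC correction and 1590 without a filter, and members (1) numbered 2 with DESeq2, 3 with library size alone and 4 without a filter. In TAU MOL against TAU VEH, genes (0) numbered 56 with DESeq2 and 233 without a filter. In WT VEH against WT VEH_HC, genes (1413) numbered 791 after the GC correction, 2686 without a filter and 3000 with the replicate block, and members (0) numbered 2 with DESeq2, 2 with library size alone, 3 without a filter and 2 with the block (Aqp4 and Gja1). Against WT VEH_HC, 1712 genes (5782) were called in TAU VEH and 1588 (4864) in TAU MOL after the GC correction, with 2 members (4) in the latter. In the comparison of both experiments, genes (22) numbered 121 with DESeq2 and 77 without a filter. Scaling by library size alone moved the median of all genes by 0.151 (TAU VEH against WT VEH), 0.123 (TAU MOL against WT VEH), 0.154 and 0.132 (TAU VEH and TAU MOL against WT VEH_HC), and the share of lower genes among those called moved from 74.9% to 28.3%, 89.1% to 30.1%, 52.9% to 23.5% and 51.6% to 20.6% in these comparisons in turn, and from 36.3% to 25.4% in WT VEH against WT VEH_HC.

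Some log2 values turned sign. After the GC correction these were Vim in untrained mice (0.017), Cd44 in TAU MOL against WT VEH_HC (-0.0088), Gja1 in TAU VEH (-0.067) and TAU MOL (-0.072) against WT VEH, and Aldoc in TAU MOL against TAU VEH (-0.0043). With library size alone they were Vim (-0.0016) and Aldoc (-0.021) in TAU MOL against TAU VEH and Serpina3n in the comparison of both experiments (0.075). For Aldh1l1 the corrected value and that with library size alone were 0.011 and 0.036 in TAU VEH against WT VEH, 0.035 and 0.071 in TAU MOL against WT VEH, 0.063 and 0.010 in WT VEH against WT VEH_HC, 0.074 and 0.046 in TAU VEH against WT VEH_HC, and 0.098 and 0.082 in TAU MOL against WT VEH_HC.

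Without 1 library at a time, genes called numbered 1 to 15 in untrained mice, 915 to 2944 in TAU VEH and 2 to 1379 in TAU MOL against WT VEH, 0 to 15 in TAU MOL against TAU VEH, 73 to 2798 in WT VEH, 3273 to 5985 in TAU VEH and 2319 to 5269 in TAU MOL against WT VEH_HC. Members called numbered 1 to 5 in TAU VEH and 0 to 2 in TAU MOL against WT VEH, 0 to 2 in WT VEH and 3 to 6 in TAU VEH against WT VEH_HC. Log2 values that changed sign ranged as follows. In untrained mice they ranged from -0.12 to 0.060 for Vim, -0.069 to 0.42 for Aqp4 and -0.45 to 0.026 for Aldh1l1. In TAU VEH against WT VEH the ranges were -0.48 to 1.01 for Lcn2, -0.012 to 0.14 for Gja1 and -0.012 to 0.19 for Aldoc. In TAU MOL against WT VEH they were -0.045 to 0.58 for Cd44, -0.16 to 0.047 for Aldh1l1, -0.11 to 0.17 for Gja1 and -0.030 to 0.22 for Aldoc. In TAU MOL against TAU VEH they were -0.12 to 0.10 for Gfap, -0.19 to 0.21 for Vim, -0.17 to 1.23 for Lcn2, -0.042 to 0.16 for Aldh1l1, -0.17 to 0.11 for Gja1 and -0.12 to 0.12 for Aldoc. In WT VEH against WT VEH_HC they were -0.033 to 0.10 for Gfap, -0.10 to 0.14 for Serpina3n, -0.042 to 0.026 for Aldh1l1 and -0.039 to 0.12 for Aldoc. In TAU MOL against WT VEH_HC they were -0.12 to 0.29 for Vim, -0.22 to 0.41 for Cd44 and -0.16 to 0.040 for Aldh1l1.

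The labels name no day or batch common to same-numbered libraries, and the numbers were not taken as pairs: the correlations of the libraries' deviations from the group means were -0.0182 to 0.248 over 12 pairs in the learning experiment, 4 of them over 0.1, and -0.162 and -0.0635 over 2 pairs in untrained mice. A shared batch was not tested. With the replicate block the call of Serpina3n between TAU VEH and WT VEH_HC was lost (adjusted p = 0.0746), and so were those of Cd14 between TAU MOL and WT VEH_HC and of Sntb1 between WT VEH and WT VEH_HC.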

Other observations

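Oligodendrocyte markers, genes of the myelinating cells, were lower in untrained THY-Tau22 mice for 10 of 10 genes by sign, with a median log2 difference of -0.47, 0 called by edgeR and 7 at an unadjusted p under 0.05. Their sum was 7599 to 12530.5 CPM in WT and 7082 to 7351 CPM in THY-Tau22 libraries. In WT VEH compared with WT VEH_HC the median of this list was 0.44, with 9 of 10 genes positive, 0 called and 3 at an unadjusted p under 0.05, and its sum ranged from 4043 to 8182 CPM within WT VEH_HC alone. Endothelial markers had a median log2 difference of -0.25 in TAU VEH and -0.18 in TAU MOL compared with WT VEH, with 0 of 10 called and 1 at an unadjusted p under 0.05 in each, and pericyte and smooth muscle markers had medians of 0.07 in both, with 0 of 7 called and 1 at an unadjusted p under 0.05. In untrained mice 9 of 10 endothelial, 7 of 7 pericyte and smooth muscle and 8 of 8 fibroblast and meninges markers were positive. Their medians were 0.13, 0.37 and 0.62, with 0 called and 1 at an unadjusted p under 0.05 in each list. Of ependymal and blood cell markers 0 of 7 and 0 of 5 were positive there (medians -0.64 and -0.53). Of these 0 were called, and 5 and 3 had an unadjusted p under 0.05.

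Among microglial genes, Itgax, an integrin gene of activated microglia, rose by 2.11 in TAU VEH (adjusted p = 0.00229, 1.73 against 0.399 CPM) and by 2.23 in TAU MOL (adjusted p = 0.00993) on the log2 scale compared with WT VEH. The TAU MOL call was lost without either WT VEH or either TAU MOL library, and DESeq2 gave Itgax no adjusted p in either comparison. Tmem119, a gene of resting microglia, fell by 0.35 in TAU VEH (adjusted p = 0.0199) and by 0.38 in TAU MOL (adjusted p = 0.0293). The calls of Tmem119 were lost after correction for GC content and length (log2 -0.06, adjusted p = 0.754, and -0.18, adjusted p = 0.363) and with library size alone. In WT VEH compared with WT VEH_HC, P2ry12 (0.53, adjusted p = 0.0434) and C1qc (0.39, adjusted p = 0.0493) rose, calls kept under 6 and 8 of 15 alternatives. Ependymal markers had a median log2 difference of 0.23 and blood cell markers of -0.04 in TAU VEH compared with WT VEH, with 0 called and 0 at an unadjusted p under 0.05 in each, and 1 of 8 markers of fibroblasts and meninges fell, beside 14.4% of all tested genes called in either direction. It was the growth factor gene Igf2 (log2 -1.51, adjusted p = 0.0327), a call kept under 9 of 15 alternatives and lost with DESeq2, after the GC and length correction and without any single WT VEH or TAU VEH library.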
